A study of Homo sapiens with 6 samples.

Results

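The NLRP genes encode cytoplasmic proteins with a nucleotide-binding NACHT domain, a pyrin domain and leucine-rich repeats. The 10 genes described here, NLRP1, NLRP2, NLRP3, NLRP4, NLRP6, NLRP7, NLRP11, NLRP12, NLRP13 and NLRP14, were taken by gene symbol from a table of 23250 genes. They were selected on the read counts compared here, in particular the low counts of NLRP4 and NLRP7 with mutant BCL6. The differences of these 10 genes between the groups are therefore given as a description, without a test. Of the 10 genes, 5 had enough reads to enter the model fitted across all genes, and 2 had no read in any library. Another 4 NLRP rows of the table, NLRP5, NLRP8, NLRP9 and NLRP10, are not among the 10. NLRP5 and NLRP10 had no read in any library, NLRP8 had 1 read in all, and NLRP9 had 2 to 6 reads a library with wild-type BCL6 and 3 to 8 with mutant BCL6.

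RNA was sequenced from OCI-LY1, an established human line of diffuse large B cell lymphoma (DLBCL), which is a mature B cell tumour. In both groups endogenous BCL6, a transcriptional repressor needed for the germinal centre reaction, was depleted with siRNA and BCL6 was then expressed ectopically. The introduced copy was wild-type BCL6 in the wild-type rescue (n = 3 libraries) and BCL6 with a mutation in its central repression domain RD2 in the mutant rescue (n = 3 libraries). No library without an introduced copy was analysed here, and the labels name no separate cultures, so the spread between libraries, and every p-value, may be technical.

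Libraries held 26298456 to 27574867 counts. Levels below are CPM (counts divided by the TMM-scaled library size), given as mean ± SD over n = 3 libraries. A log2 fold change is the mutant minus the wild-type rescue, so a negative value means lower with mutant BCL6. BCL6 itself stood at 19069, 16998 and 18789 counts with wild-type BCL6 and 14166, 13726 and 13827 in the mutant rescue, and the counts do not separate endogenous from introduced transcript. B cell markers were expressed in both groups, at levels that differed between them (edgeR's quasi-likelihood test): MS4A1 (CD20) fell from 583 ± 16.97 to 107 ± 4.002 CPM, CD37 fell from 351 ± 12.98 to 178 ± 4.50 CPM, CD22 fell by 0.47 on the log2 scale and PAX5 rose (0.26). The part of these shifts in the NLRP differences was not tested. Of 11 myeloid markers 5 were at 0 everywhere, including S100A8, S100A9, MPO and ELANE, and the summed myeloid level was 0.110 to 0.365 CPM with wild-type BCL6 and 0.559 to 0.821 CPM with mutant BCL6. T and NK cell markers summed to 0.367 to 0.727 and 0.298 to 0.526 CPM, with CD3E at 0. Within this sum, KLRD1 was lower with mutant BCL6 (13, 10 and 9 against 2, 0 and 2 counts). CD8A was higher (1, 2 and 0 against 3, 6 and 5 counts). The part of T or NK cells in the NLRP differences was not tested. Epithelial and stromal markers summed to 15.7 to 17 CPM with wild-type BCL6 and 3.77 to 4.43 CPM with mutant BCL6, nearly all of it EPCAM, while KRT19 and COL3A1 were at 0 and KRT8, KRT18 and CDH1 had at most 2 counts in the 3 libraries of a group. The part of EPCAM-expressing cells in the NLRP differences was not tested. In bulk RNA, fewer cells expressing a gene and less RNA per cell cannot be told apart.

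In the inflammasome, a sensor such as NLRP1 or NLRP3 recruits the adaptor PYCARD (ASC) and the protease CASP1, which matures interleukin 1 beta and opens gasdermin pores. NLRP6 works mainly in the gut lining, and NLRP12 mostly restrains inflammatory signalling. These 4 genes are called the inflammasome group below. Other members are best known from the germ line and the early embryo: NLRP2 and NLRP7 act in oocytes, where defects of NLRP7 lead to recurrent hydatidiform mole with lost maternal imprints, and NLRP4, NLRP11, NLRP13 and NLRP14 are known mainly from oocytes or testis. These 6 genes are called the reproductive group, although NLRP2, NLRP4 and NLRP11 have also been described as regulators of innate immune signalling. Most NLRP genes of the reproductive group lie on chromosome 19, in clusters that arose by gene duplication.

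The letters upstream of 4 chromosome 19 genes are shown because these genes lie in 2 pairs on opposite strands, NLRP7 with NLRP2 and NLRP4 with NLRP11, and in each pair the 2 genes stood at very different levels in at least one of the rescues. Each is the 250 bases before the start annotated by RefSeq on GRCh38.p14, written 5′ to 3′ on the gene's own strand, with capitals marking CpG dinucleotides, the target of DNA methylation. The counts were made on build hg19, so these coordinates do not apply to the count table. NLRP4 is read from the plus strand and its window is chr19:55836290-55836539, NLRP11 from the minus strand with chr19:55836576-55836825, NLRP7 from the minus strand with chr19:54947531-54947780, and NLRP2 from the plus strand with chr19:54966124-54966373.
NLRP4: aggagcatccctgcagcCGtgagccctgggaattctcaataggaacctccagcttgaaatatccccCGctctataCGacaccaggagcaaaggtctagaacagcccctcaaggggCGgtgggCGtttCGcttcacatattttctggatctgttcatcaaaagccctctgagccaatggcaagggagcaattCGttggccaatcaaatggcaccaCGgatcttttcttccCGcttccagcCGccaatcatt
NLRP11: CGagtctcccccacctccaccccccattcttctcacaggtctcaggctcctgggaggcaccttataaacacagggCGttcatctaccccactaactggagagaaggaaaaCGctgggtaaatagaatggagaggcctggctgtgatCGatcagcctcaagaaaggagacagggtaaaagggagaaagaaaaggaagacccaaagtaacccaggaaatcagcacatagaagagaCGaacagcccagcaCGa
NLRP7: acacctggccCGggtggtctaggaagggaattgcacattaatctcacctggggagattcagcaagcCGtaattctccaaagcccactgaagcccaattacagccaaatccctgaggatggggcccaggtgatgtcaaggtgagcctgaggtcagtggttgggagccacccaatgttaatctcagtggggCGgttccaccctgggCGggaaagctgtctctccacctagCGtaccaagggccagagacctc
NLRP2: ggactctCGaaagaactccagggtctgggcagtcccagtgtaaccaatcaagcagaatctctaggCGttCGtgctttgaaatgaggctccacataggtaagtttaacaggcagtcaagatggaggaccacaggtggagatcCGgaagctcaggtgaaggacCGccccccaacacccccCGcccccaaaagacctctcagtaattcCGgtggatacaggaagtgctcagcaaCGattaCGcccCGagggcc

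The annotated starts of NLRP4 and NLRP11 were 35 bases apart, with the first bases of the 2 transcripts overlapping on opposite strands. The starts of NLRP7 and NLRP2 were 18844 bases apart and, from these starts, the genes pointed away from each other. GENCODE v29, however, lists NLRP2 and NLRP7 as overlapping on opposite strands. The windows of NLRP4 and NLRP2 each held 10 CpG, that of NLRP11 held 6 and that of NLRP7 held 5, against a median of 11 over 27305 promoters of the same length. RefSeq entries were found for 8 of the 10 genes and not for NLRP1 and NLRP13. NLRP14 had the most CpG of the 8, with 17, and NLRP3 and NLRP12 the fewest, with 3 each. The BCL6 consensus TTCCTAGAA, its looser form TTCNTAGAA, which contains the consensus, and the STAT-type palindrome TTCNNNGAA, which contains both, were sought on both strands. None of the 8 windows held a match to any of them, and 0.341%, 0.883% and 6.78% of all promoters did. The letters TATAAA were found in the windows of NLRP3 and NLRP11, and in 11.1% of all promoters.

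**Figure D1:**
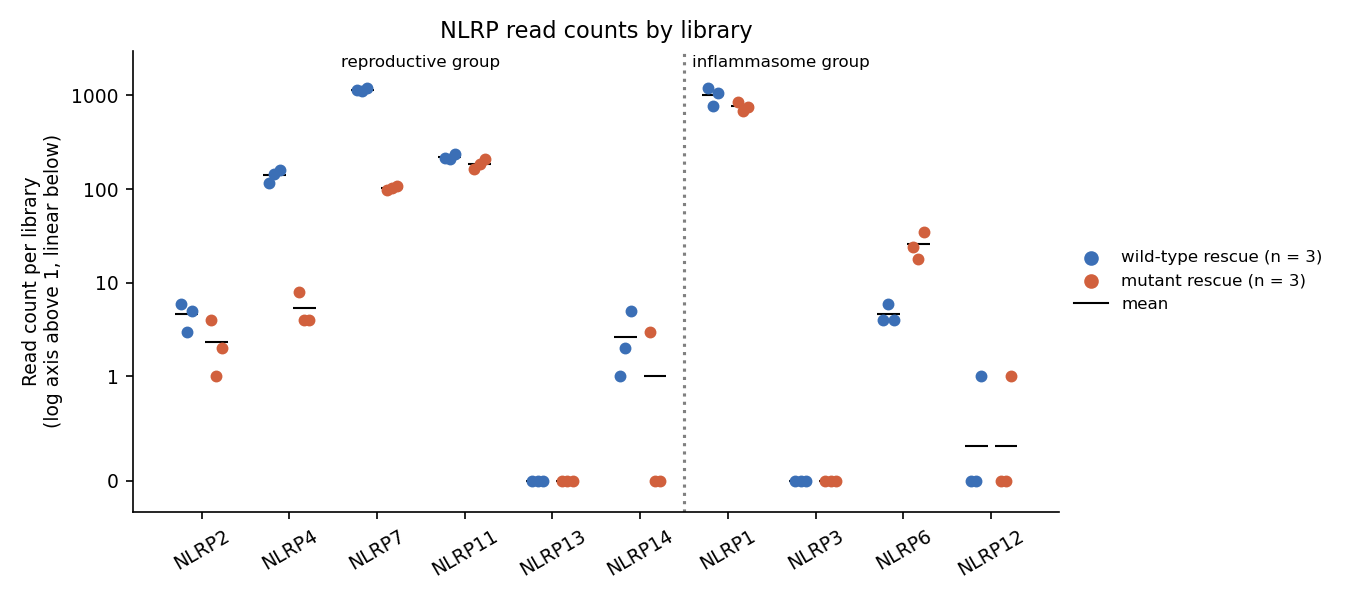
Read counts of the 10 NLRP genes in each library (points; log axis above 1 and linear below) with the mean of each group (bars), for the wild-type rescue and the mutant rescue (n = 3 each). NLRP7 and NLRP4 sit far lower in all 3 mutant rescue libraries, NLRP11 and NLRP1 overlap between groups, and NLRP3 and NLRP13 are at 0 throughout.

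In the reproductive group, NLRP7 had the most reads and, with NLRP4, was far lower with mutant BCL6. NLRP7 had 1150, 1122 and 1187 counts with wild-type BCL6 and 97, 102 and 107 with mutant BCL6. All 3 mutant rescue libraries lay far below all 3 wild-type rescue libraries, and replicates of a group lay close together. NLRP7 was thus 11.2-fold lower, at 3.81 ± 0.200 against 42.8 ± 0.803 CPM (log2 fold change -3.49, SE 0.07). The spread between its replicates was no wider than counting noise, with a chi-square per degree of freedom of 0.356 with wild-type BCL6 and 0.271 with mutant BCL6. The transcript remained above a floor of 3 counts, which is 0.109 to 0.114 CPM, in every library.

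NLRP4 had 115, 145 and 162 counts with wild-type BCL6 and 8, 4 and 4 with mutant BCL6. Again the groups did not overlap, and the mutant rescue libraries were close to the detection limit. NLRP4 was 25.6-fold lower, at 0.199 ± 0.0860 against 5.23 ± 0.917 CPM (log2 fold change -4.68, SE 0.26). Its size is less certain than that of NLRP7, and with a larger prior count of 2 in the fit the log2 fold change was -4.27. NLRP4 passed the filter on low counts only through the wild-type rescue. Among the 12406 genes in the fit, NLRP4 had the 4th lowest and NLRP7 the 16th lowest log2 fold change, and both were selected on this difference.

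NLRP11, whose start lies beside that of NLRP4, had 215, 210 and 239 counts with wild-type BCL6 and 166, 185 and 210 with mutant BCL6. The highest mutant rescue library, at 7.89 CPM, lay above the lowest wild-type rescue library, at 7.84 CPM. NLRP11 stood at 8.21 ± 0.487 CPM with wild-type BCL6 and 6.99 ± 0.852 CPM with mutant BCL6, a log2 fold change of -0.23 (SE 0.10), which was -0.15 without mutant rescue replicate 1. The ratio of neighbours therefore differed between groups: NLRP4 had fewer reads than NLRP11 in every library, but by much more with mutant BCL6.

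NLRP2, which lies next to NLRP7 and points away from it, was barely detected: it had 6, 3 and 5 counts with wild-type BCL6 and 4, 1 and 2 with mutant BCL6. NLRP2 was not in the fit, and its groups overlapped. NLRP14, known from testis and oocytes, had 1, 2 and 5 counts against 3, 0 and 0, and NLRP13 had no read in any library. For these 3 genes a difference was not detectable at this depth.

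Some of these genes resemble each other in sequence. Of the 50-base words in the longest GENCODE v29 transcript of NLRP7, 9.95% also occurred in NLRP2, nearly all on the same strand, and 9.88% of those of NLRP2 occurred in NLRP7. For NLRP4, 4.81% of the words occurred in NLRP11 on the opposite strand, and 3.65% of those of NLRP11 in NLRP4. NLRP1, NLRP6, NLRP13 and NLRP14 shared no such word with another gene. How the counting treated shared and overlapping reads is not given in the sources used here, and the ribosomal protein gene RPL21 was at 0 in all libraries. A share of the NLRP7 reads could thus belong to NLRP2, or be missing from both.

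**Figure D2:**
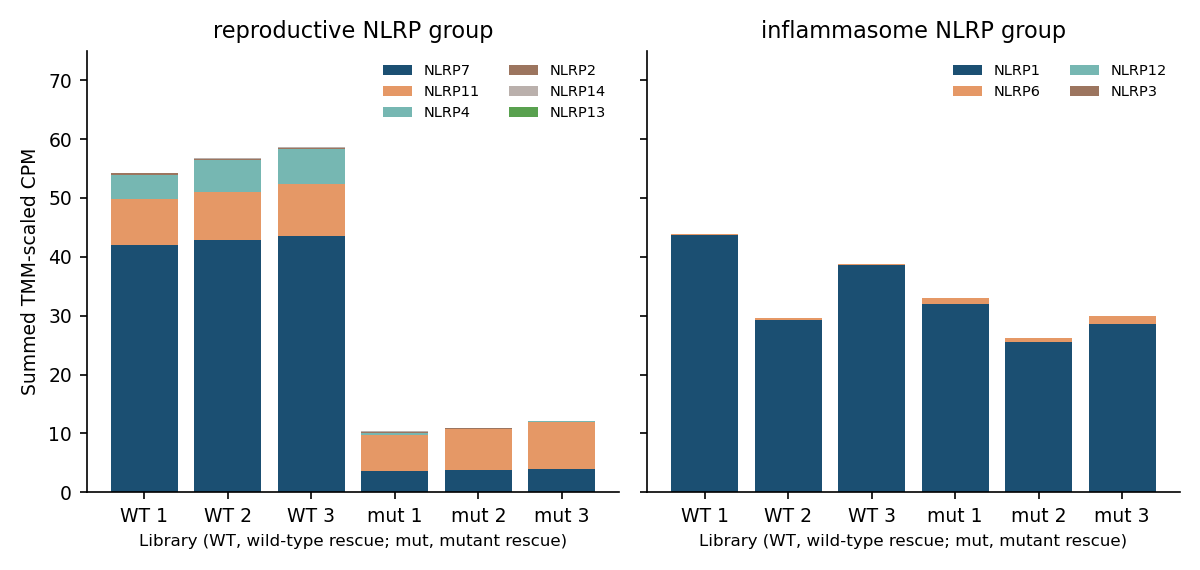
Summed TMM-scaled CPM of the reproductive and inflammasome NLRP groups in each library, stacked by gene. In the reproductive group NLRP7 makes up most of the bar in the wild-type rescue and NLRP11 in the mutant rescue, while the inflammasome group is almost all NLRP1 in every library.

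In the inflammasome group, NLRP1 was the only gene above 2 CPM. It had 1198, 767 and 1052 counts with wild-type BCL6 and 859, 684 and 762 with mutant BCL6. The groups overlapped, and replicate 2 was the lowest library of both groups. NLRP1 stood at 37.2 ± 7.27 CPM with wild-type BCL6 and 28.7 ± 3.29 CPM with mutant BCL6 (log2 fold change -0.38, SE 0.18). The value was -0.24 without wild-type rescue replicate 1 and -0.51 without wild-type rescue replicate 2.

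The spread of NLRP1 went well beyond counting noise, with a chi-square per degree of freedom of 39.2 with wild-type BCL6 and 12.2 with mutant BCL6, where the median gene had 1.11 and 1.53. Only 32 genes of the fit, NLRP1 included, had a value at or above that of NLRP1 in the wild-type rescue. Of the 286 genes above 10 on this measure in the wild-type rescue, 166 (58.0%) were lowest in replicate 2 of both groups, against 17.5% of all genes in the fit. The part of this pattern in the NLRP1 difference was not tested.

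NLRP6 had 4, 6 and 4 counts with wild-type BCL6 and 24, 18 and 35 with mutant BCL6. The groups did not overlap, and the direction was opposite to that of the other 4 NLRP genes in the fit. NLRP6 was 5.42-fold higher, at 0.960 ± 0.327 against 0.174 ± 0.0481 CPM (log2 fold change 2.44, SE 0.38), and 2.06 on the log2 scale with a prior count of 2. It stayed at a low level and passed the filter only through the mutant rescue. NLRP12 had 1 read in 1 library of each group. NLRP3, the best studied inflammasome sensor, had no read in any of the 6 libraries, which allows up to 3 counts, or 0.109 to 0.114 CPM, per library. The groups thus did not overlap for 3 of the 5 NLRP genes in the fit, which was the case for 72.4% of all genes in the fit, and the 10 genes were selected on this contrast.

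**Figure D3:**
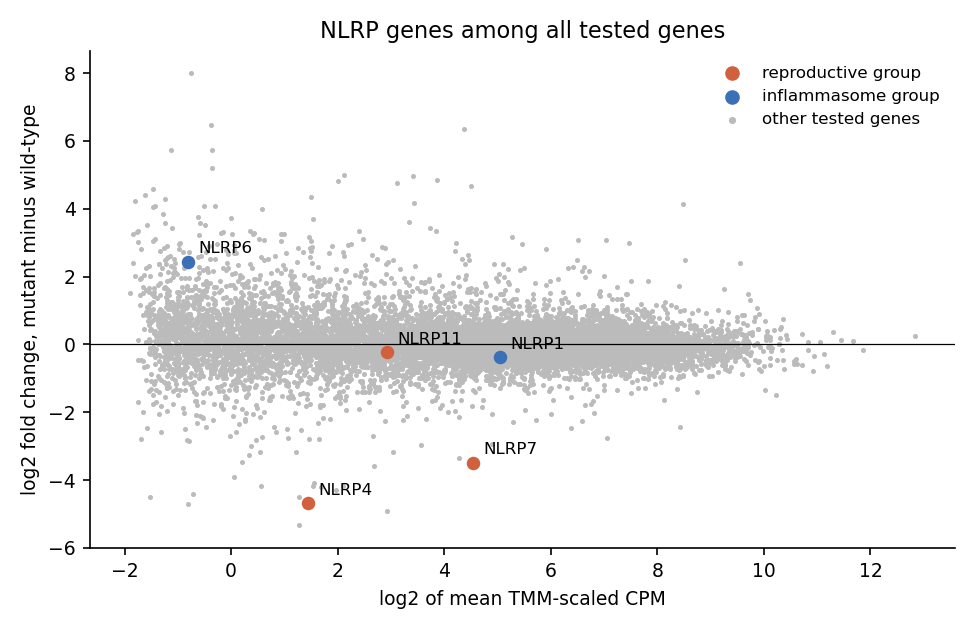
log2 fold change (mutant minus wild-type rescue) against log2 of the mean TMM-scaled CPM for all 12406 genes in the fit (grey), with the 5 NLRP genes marked by group. NLRP4 (-4.68) and NLRP7 (-3.49) lie at the lower edge, NLRP6 (2.44) lies above 0 at low expression, and NLRP11 and NLRP1 lie among the other genes.

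Summed over its 6 genes, the reproductive group stood at 56.5 ± 2.19 CPM with wild-type BCL6 and 11.1 ± 0.907 CPM with mutant BCL6. The inflammasome group of 4 genes stood at 37.4 ± 7.22 and 29.7 ± 3.41 CPM. NLRP7 made up 74.3% to 77.3% of the reproductive counts with wild-type BCL6 and 33.1% to 34.9% with mutant BCL6. NLRP1 made up 95.5% to 99.7% of the inflammasome counts in all 6 libraries. The contrast between the group sums thus rested on NLRP7 and NLRP4, since NLRP11, in the same group, differed little. No test of the groups against each other was made.

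To compare levels between genes, CPM were divided by the length of the longest GENCODE v29 transcript in kilobases. In the wild-type rescue the order was NLRP7 (11.2 ± 0.210 CPM per kb), NLRP1 (6.83 ± 1.33), NLRP11 (2.17 ± 0.129) and NLRP4 (1.42 ± 0.250), with no overlap between neighbours in this order. NLRP6 (0.0593 ± 0.0164) and NLRP2 (0.0460 ± 0.0141) followed and overlapped each other, as did NLRP2 and NLRP14 (0.0272 ± 0.0209). In the mutant rescue NLRP1 came first (5.27 ± 0.604 CPM per kb), then NLRP11 (1.85 ± 0.225), NLRP7 (0.996 ± 0.0523), NLRP6 (0.327 ± 0.111) and NLRP4 (0.0543 ± 0.0234), again with no overlap between neighbours in the order. The lowest NLRP4 library, at 0.0406 CPM per kb, was only just above the highest NLRP2 library, at 0.0399 (mean 0.0233 ± 0.0152), and NLRP2 overlapped NLRP14 (0.0103 ± 0.0178). NLRP7 thus stood above NLRP1 with wild-type BCL6 and below NLRP11 with mutant BCL6. With mutant BCL6, NLRP4 (8, 4 and 4 counts) and NLRP2 (4, 1 and 2) were too near the floor of 3 counts to be ordered.

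By likeness of centred log2 CPM over the 6 libraries, the 5 genes nearest to NLRP7 were RAB25, TUBB3, C6orf223, CD44 and PTAFR, with root mean square differences of 0.141 to 0.263 among 10612 candidates. RAB25 encodes a small GTPase of epithelial cells, TUBB3 a tubulin typical of neurons, CD44 an adhesion receptor and PTAFR the receptor of platelet activating factor. RAB25 had 313, 299 and 350 counts with wild-type BCL6 and 28, 22 and 29 with mutant BCL6. The 5 genes nearest to NLRP4 were the mucin gene MUC16, the kinesin gene KIF26B, TFPI2, C4orf26 and NAV2, with differences of 0.323 to 0.538. MUC16 had 135, 157 and 156 counts with wild-type BCL6 and 12, 8 and 6 with mutant BCL6. The libraries fall into 2 groups, so genes with a group difference of similar size come out as near on this measure.

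The genes lying beside the NLRP genes were mixed in direction. Among the 5 nearest protein-coding genes on each side of each NLRP gene in RefSeq order, 70 were in the table, 37 were in the fit, 14 rose, 13 fell and 10 did not pass (edgeR's quasi-likelihood test with p adjusted over all genes by Benjamini-Hochberg, threshold 0.05). Over all 12406 genes in the fit, 70.1% passed, 35.4% higher and 34.8% lower, so the neighbours' 73.0% is near the background. The median log2 fold change of the neighbours was 0.06, against 0.01 for all genes. The 3 neighbours that passed and changed at least 2-fold were IFITM2, IFITM3 and TNNT1, and each rose, but IFITM3 (6, 6 and 3 against 21, 20 and 14 counts) and TNNT1 entered the fit only through the mutant rescue, where they were high. Of all genes in the fit 9.51% passed and changed at least 2-fold, 6.3% higher and 3.22% lower.

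On chromosome 19, 15 of 30 such neighbours, a part of those counted above, were in the fit, of which 6 rose and 6 fell. The share that passed was 80%, against 70.1% for all genes in the fit. RDH13, a retinol dehydrogenase gene near NLRP2, fell from 31.6 ± 1.23 to 16.1 ± 1.10 CPM (log2 fold change -0.97; edgeR, adjusted p = 9.72e-12). TNNT1, a troponin gene on the same side, rose at a very low level, from 6, 7 and 7 counts to 23, 32 and 31. EPN1, an endocytic adaptor gene near NLRP11, fell by 0.42 on the log2 scale, and the splicing factor gene U2AF2 did not pass (-0.05). The NK cell genes NCR1 and KIR3DL2 and the oocyte gene RFPL4A, which lie near NLRP7 or NLRP11, had at most 4 counts in a group. Of the other neighbours with the smallest p, C1QBP near NLRP1 fell (-0.92), and IFITM2, an interferon-induced gene near NLRP6, rose from 4.62 ± 0.136 to 15.6 ± 1.12 CPM (log2 fold change 1.75; edgeR, adjusted p = 2.71e-13). IFITM2 resembles its neighbours IFITM1 (0.88) and IFITM3 (1.86), so single values are uncertain.

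**Figure D4:**
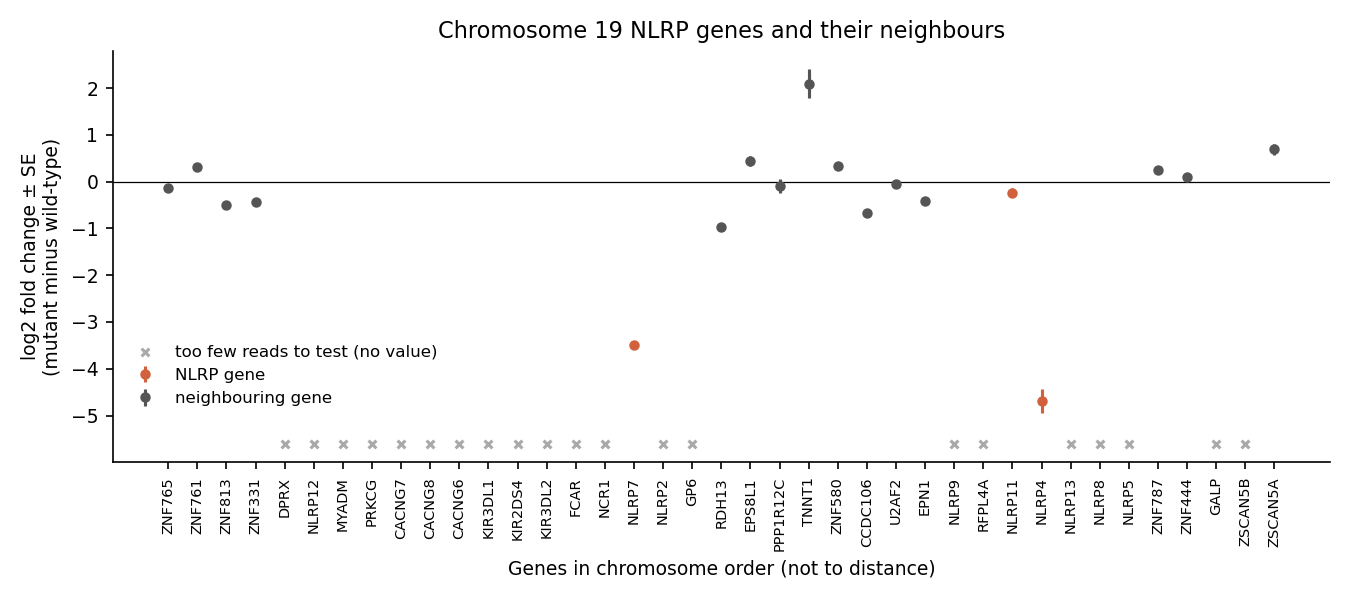
log2 fold change ± SE (mutant minus wild-type rescue) of the chromosome 19 NLRP genes and the genes nearest to them, in chromosome order and not to distance; crosses mark genes with too few reads to test. NLRP7 (-3.49) and NLRP4 (-4.68) lie far below the genes around them, including NLRP11 (-0.23).

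Partners of the inflammasome sensors were examined next. Of 37 genes in the table that encode inflammasome adaptors, effectors or modulators, 24 were in the fit, 13 rose, 9 fell and 2 did not pass, with a median log2 fold change of 0.12. The share that passed, 91.7%, stands beside 70.1% for all genes. CARD8, a sensor related to NLRP1, rose from 88.6 ± 2.11 to 167 ± 1.59 CPM (log2 fold change 0.92, SE 0.03; edgeR, adjusted p = 1.84e-15). Its 3 wild-type rescue libraries had 2495, 2297 and 2371 counts and its mutant rescue libraries 4477, 4532 and 4409, so the groups were far apart. TXNIP, which links oxidative stress to NLRP3, rose 1.56-fold, and NEK7, the kinase needed for NLRP3 activation, rose 1.33-fold. Both were well expressed although NLRP3 itself had no read.

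The adaptor PYCARD rose from 171, 172 and 181 counts to 332, 280 and 313 (log2 fold change 0.83, SE 0.09; edgeR, adjusted p = 5.21e-08). CASP1, the effector protease, rose from 5, 7 and 9 counts to 27, 26 and 30, a log2 fold change of 1.97 (SE 0.30), and remained near 1 CPM. P2RX7, the ATP-gated channel that triggers NLRP3, rose from 7, 5 and 7 counts to 39, 38 and 34 (log2 fold change 2.53, SE 0.28). CASP1 and P2RX7 entered the fit only through the mutant rescue. The summed level of the 11 myeloid markers was also higher with mutant BCL6 (0.559 to 0.821 against 0.110 to 0.365 CPM). CD14 had 4, 3 and 0 against 14, 8 and 4 counts, and LYZ 0, 0 and 0 against 3, 1 and 6. ITGAM (3, 4 and 2 against 5, 2 and 4 counts) overlapped between groups. So did CSF1R, CD33 and FCGR3A, with at most 2 counts a library. Another 5 markers, S100A8 and MPO among them, were at 0 in both groups. The part of myeloid cells in the values of CASP1 and P2RX7 was not tested. CASP1 shares much sequence with CARD16, which had 14 to 20 counts per library and did not pass. CASP4, the sensor protease of the noncanonical inflammasome, rose (0.83), as did the interleukin 18 inhibitor gene IL18BP (0.77).

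Gasdermin and cytokine genes followed. GSDMD, which forms the pore, stood at 49.97 ± 2.09 CPM with wild-type BCL6 and 52.1 ± 4.71 CPM with mutant BCL6 and did not pass (edgeR, adjusted p = 0.367). The related gasdermin gene DFNA5 (GSDME) fell by 0.67 on the log2 scale. IL1B had 2, 3 and 2 counts with wild-type BCL6 and 15, 9 and 24 with mutant BCL6 and was not in the fit, and IL18 had no read. NINJ1, whose product ruptures the membrane after pore formation, rose (0.69). Transcripts of the cytokines themselves were thus scarce in both groups.

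Among sensors and regulators that fell, AIM2, the sensor of cytosolic DNA, went from 149, 129 and 162 counts to 36, 25 and 36 (log2 fold change -2.17, SE 0.16; edgeR, adjusted p = 9.89e-11). It was the only gene of this list that fell at least 2-fold, and 2 rose at least 2-fold, P2RX7 and CASP1. TLR4, the endotoxin receptor that primes the pathway, fell by 0.75 on the log2 scale, and its adaptor MYD88 fell by 0.28. The protease gene DPP9, whose product restrains NLRP1 and CARD8, fell by 0.22, and the related DPP8 rose (0.12). Of the genes of this list not yet named, KCNK6 (0.57), PSTPIP1 (0.67) and IFI16 (0.12) rose, and BRCC3 (-0.24), PANX1 (-0.22) and CASP8 (-0.13) fell. SERPINB1, an inhibitor of inflammatory proteases, fell by 0.66.

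**Figure D5:**
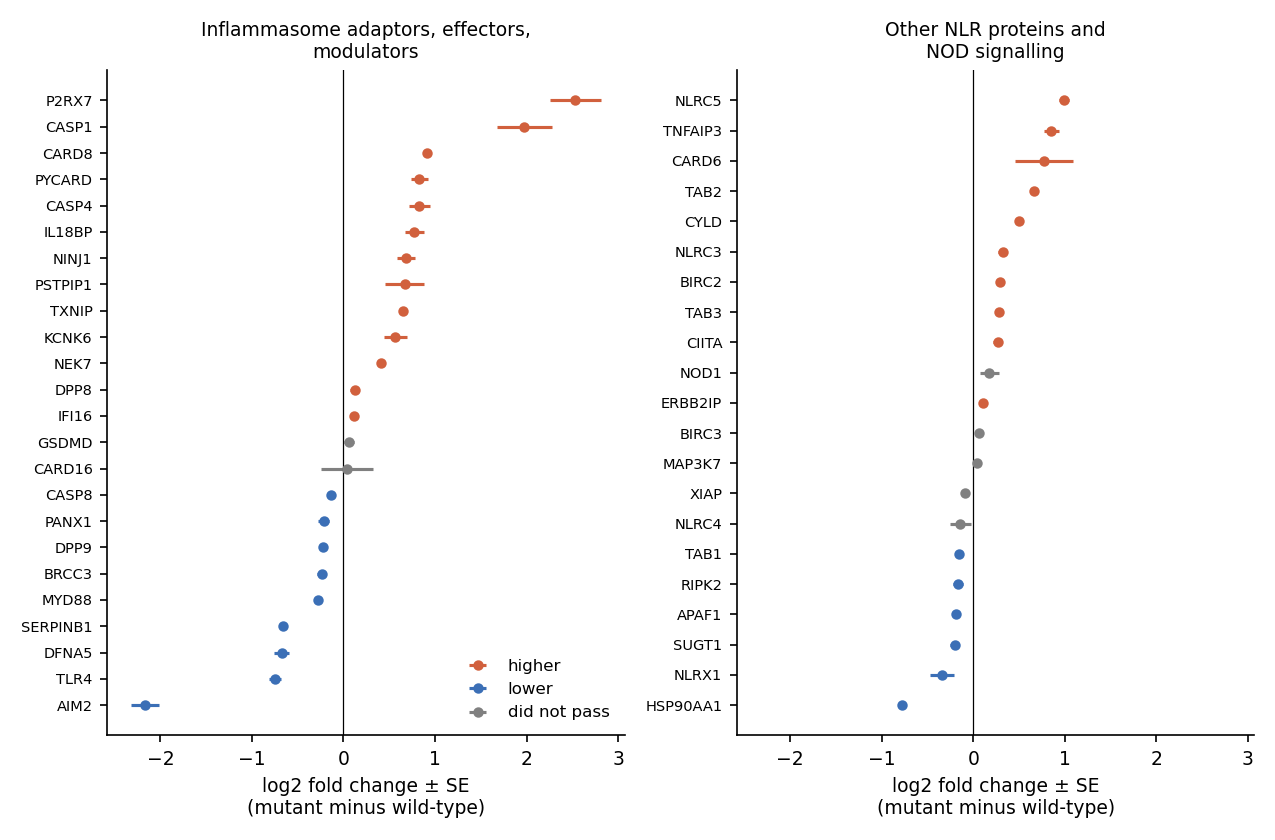
log2 fold change ± SE (mutant minus wild-type rescue) of the genes in the fit on the list of inflammasome adaptors, effectors and modulators (24 genes) and on the list of other NLR proteins and NOD signalling (21 genes), coloured by whether they passed as higher or lower. P2RX7 (2.53), CASP1 (1.97) and AIM2 (-2.17) stand at the ends, and no gene of the second list reached 2-fold.

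Related sensors outside the NLRP family were examined in the same way. Of 25 genes for other NLR proteins and NOD signalling, 21 were in the fit, 10 rose, 6 fell and 5 did not pass. Their median log2 fold change was 0.11, and 76.2% passed, against 70.1% of all genes in the fit. The widest difference was that of NLRC5. NLRC5, the activator of class I MHC genes, rose from 661, 583 and 668 counts to 1329, 1161 and 1290 (log2 fold change 0.99, SE 0.06; edgeR, adjusted p = 2.58e-12). CIITA, the class II activator, rose (0.27), as did NLRC3 (0.32), while the mitochondrial NLRX1 fell by 0.34 on the log2 scale. The chaperone gene HSP90AA1 fell by 0.77 and had the smallest p of this list, and SUGT1 (-0.20), APAF1 (-0.19), RIPK2 (-0.17) and TAB1 (-0.15) fell as well. TNFAIP3 (0.85) and CYLD (0.50), which encode deubiquitinases, CARD6 (0.77), TAB2 (0.66), BIRC2 (0.30), TAB3 (0.28) and ERBB2IP (0.11) rose. CARD6, with 9, 8 and 10 against 13, 17 and 16 counts, entered the fit only through the mutant rescue, where it was high. NOD1 (0.18), the inflammasome sensor NLRC4 (-0.14), XIAP (-0.09), BIRC3 (0.07) and MAP3K7 (0.05) did not pass, and NOD2 and NAIP had too few reads to test.

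Other genes of oocytes had few reads. Of 33 oocyte and subcortical maternal complex genes in the table, 15 had no read in any library, among them OOEP, PADI6, C6orf221 (KHDC3L), FIGLA and BMP15, and 7 were in the fit. Of these 7, 2 rose, 2 fell and 3 did not pass, with a median log2 fold change of -0.09. The share that passed was 57.1%, against 70.1% for all genes in the fit. PATL2, a translational regulator of oocytes, rose from 34, 21 and 17 counts to 77, 69 and 78 (log2 fold change 1.64, SE 0.21), and CPEB1, which controls stored mRNA, fell from 41, 60 and 40 counts to 24, 23 and 25. KHDC1 rose (0.52) and ZBED3 fell by 0.39 on the log2 scale. The whole list summed to 11.4 to 12.8 CPM with wild-type BCL6 and 13 to 13.6 CPM with mutant BCL6.

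Cancer-testis and germline genes were mixed. Of 72 in the table, 29 had no read and 16 were in the fit. Of these 16, 6 rose, 3 fell and 7 did not pass, with a median log2 fold change of -0.06. The share that passed was 56.2%, against 70.1% for all genes in the fit. MAGEA6 fell from 267, 287 and 289 counts to 185, 141 and 171 (log2 fold change -0.75), and its close copy MAGEA3 did not pass, so reads between them are uncertain. TDRD6, of the piRNA pathway, fell by 1.43 on the log2 scale from 42, 19 and 21 counts to 14, 6 and 10. It was the only gene of the list to pass and change at least 2-fold. However, TDRD6 entered the fit only through the wild-type rescue, where it was high. STAG3 and SYCP3 rose (0.99 and 0.86). TCL1B and TCL6, T cell leukaemia/lymphoma genes that the list also held and that count among the 6, rose too (0.69 and 0.71). PRAME fell by 0.17.

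Because NLRP7 and NLRP2 are tied to maternal imprints, imprinted genes and imprint maintenance factors were also read. Of 32 imprinted genes in the table, 12 were in the fit, 5 rose, 3 fell and 4 did not pass. Their median log2 fold change was 0.13, and 66.7% passed, against 70.1% of all genes in the fit. PEG10 fell from 319 ± 4.995 to 223 ± 7.23 CPM, and the antisense RNA gene KCNQ1OT1 rose from 345, 307 and 306 counts to 678, 480 and 585 (log2 fold change 0.87), though the strand setting of the counting is unknown. GNAS (0.30) and SGCE (0.61) rose, and H19 and IGF2 had no read. Of 18 imprint maintenance and DNA methylation factors in the fit, 11 rose, 3 fell and 4 did not pass. Their median log2 fold change was 0.16, and 77.8% passed, against 70.1% of all genes in the fit. The methyltransferase genes DNMT3A (0.98) and DNMT3B (0.45), the demethylase genes TET2 (0.52) and TET3 (0.80) and the zinc finger gene ZNF445 (0.76) rose. The maintenance methyltransferase gene DNMT1 fell slightly, from 836 ± 5.18 to 758 ± 20.1 CPM (-0.14), as did TRIM28 (-0.10), and ZFP57, which protects imprints in the embryo, had no read.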

How the data were processed

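RNA sequencing covered 6 libraries of OCI-LY1, 3 in each rescue. The table deposited by the authors holds raw counts of reads for each gene symbol, with a column per library. The tools named per the submitters' processing notes are CASAVA 1.8.2, STAR and edgeR, with build hg19. Not given in the sources used here are the counter, its annotation and its rules for strand and multi-mapped reads, so overlapping or similar genes cannot be told apart with certainty.

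The NLRP genes and all gene lists were chosen with earlier results of these data known. The deposited counts were analysed with edgeR 4.0.16 under R 4.3.3: filterByExpr at its defaults kept 12406 of 23250 genes, libraries were scaled with TMM (factors 0.987 to 1.02), and glmQLFTest after a robust quasi-likelihood fit compared the rescues without covariates. P-values were adjusted by Benjamini-Hochberg over all genes in the fit, with a threshold of 0.05. The fit was also run on simulated counts, in which far fewer genes differed than in these data. That run does not give the error rate of the fit here. A permutation of 3 against 3 libraries cannot pass that threshold, so none was used. CPM used all counts of a library as its size. Counting floors (3 counts) cover counting error only.

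Genes were named by a rule: all NLRP rows, BCL6, every gene in the fit on the inflammasome and NLR lists, up to 6 genes with the smallest p of each other list and of the neighbours, and the 5 genes nearest in pattern to NLRP4 and to NLRP7 with a mean count of at least 50. EPN1, U2AF2, TNNT1, IFITM1, IFITM3, CD14, LYZ, KLRD1, CD8A, MAGEA3, SYCP3, TRIM28, DNMT1, DNMT3B and genes given for low or absent reads were added after their values were seen. Gene order and upstream letters came from RefSeq on GRCh38.p14, and transcript lengths and shared 50-base words from GENCODE v29. Alternatives were DESeq2 1.42.0, limma 3.58.1 with voom, scaling by RLE or by library size, 2 other filters, the replicate number as a block, other prior counts and leaving out each library.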

Additional observations from a re-analysis of the deposited data

How the results depend on the processing

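The 5 NLRP genes in the fit kept the sign of their log2 fold change under every alternative that gave a value, and moved by less than the spread between replicates: NLRP7 ranged from -3.53 to -3.45, NLRP4 from -5.08 to -4.27, NLRP6 from 2.06 to 2.68, NLRP1 from -0.51 to -0.24 and NLRP11 from -0.33 to -0.15. A minimum of 1 CPM in all libraries left out NLRP4 and NLRP6. The count of changed genes, 8702, ranged from 7847 to 9285 and was 8099 to 8916 with 1 library left out. With the replicate block it was 9285. Libraries with the same number correlated in their deviations from the group means at 0.117, 0.149 and -0.0463, and not every library correlated best with its own number, so the numbers were not taken as pairs. The oocyte list had 4 changed genes and 2 with at least 1 CPM in all libraries, where 2 genes were tested. The other 6 lists stayed within 1.5 times their count. Depth limits NLRP2, NLRP12 and NLRP14, which had at most 14 counts in a group.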
